A study of Mus musculus with 9 samples.

Results

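The WAVE regulatory complex genes measured here were Cyfip1, Cyfip2, Nckap1, Wasf1, Wasf2, Wasf3, Abi1, Abi2 and Brk1. They were chosen by name as the subunits of the complex and their paralogs, and all 9 were found among the 18820 genes of the deposited table. Each of the 9 had a mean normalized count of at least 10 over the libraries, as did 15069 genes in all, and so all 9 entered the tests. The RNA was cortical, from mouse embryos of the strain C57BL/6J at embryonic day 18.5, and the libraries differed in the genotype of Cyfip2. There were 3 homozygous mutant libraries (KO), 3 heterozygous libraries (Het) and 3 wild-type libraries (WT). The labels do not describe the mutant allele or its extent. Nor do they state whether each library is a different embryo. A p-value here therefore reflects how far these libraries vary, and part of that variation may be technical.

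The complex joins 1 protein from each of 5 subunit classes: CYFIP (Cyfip1 or Cyfip2), NCKAP (Nckap1), WASF, also called WAVE (Wasf1, Wasf2 or Wasf3), ABI (Abi1 or Abi2) and BRK1 (Brk1). At rest the assembled complex holds the WASF protein inactive. When the small GTPase Rac binds the CYFIP subunit, the tail of the WASF protein is released and starts branched actin through the Arp2/3 complex. In developing neurons this machinery shapes growth cones, migrating leading processes and dendritic spines, and CYFIP proteins also bind the fragile X protein FMRP. Paralogs of a class take the same place in the complex, so a lower level of one can in principle be met by another, and the comparison of genotypes addressed that question at the level of RNA.

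Because such a comparison needs reads of the paralogs to be told apart, their coding sequences were aligned (GENCODE M21, build GRCm38). Cyfip1 (chromosome 7, 55841745 to 55932602, plus strand) and Cyfip2 (chromosome 11, 46193850 to 46312859, minus strand) both have a coding length of 3762 bases. Of 3759 aligned bases 837 differed, 73.0% of them at the wobble position of a codon, which left 77.7% identical. The first 90 coding bases of the pair are shown to let the density of differences be seen, with the 19 differing bases in capitals.
Cyfip1: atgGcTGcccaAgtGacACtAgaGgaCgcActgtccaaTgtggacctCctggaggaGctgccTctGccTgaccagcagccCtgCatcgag
Cyfip2: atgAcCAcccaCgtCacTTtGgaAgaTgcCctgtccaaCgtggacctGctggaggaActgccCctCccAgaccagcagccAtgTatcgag
The longest identical run in the 2 coding sequences was 24 bases, cagtacaacatctgtgagcagatg, at coding positions 1024 to 1047 of both genes. None of the 6720 distinct 31-base windows of the coding transcripts of Cyfip1 occurred among the 7127 of Cyfip2.

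The other paralogs were less alike. Abi1 (chromosome 2, 22940073 to 23040241, minus strand) and Abi2 (chromosome 1, 60409619 to 60481158, plus strand) were identical at 69.8% of aligned coding bases. Their first 90 coding bases follow, with 26 differing bases in capitals.
Abi1: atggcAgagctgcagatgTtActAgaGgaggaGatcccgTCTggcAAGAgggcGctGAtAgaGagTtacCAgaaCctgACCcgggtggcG
Abi2: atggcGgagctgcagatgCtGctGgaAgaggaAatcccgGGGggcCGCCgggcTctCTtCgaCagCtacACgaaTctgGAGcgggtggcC
Identity was 65.3% between Wasf1 and Wasf2, 65.0% between Wasf1 and Wasf3, and 63.4% between Wasf2 and Wasf3. The start of Wasf1 (chromosome 10, 40883475 to 40938570, plus strand) is set beside that of Wasf3 (chromosome 5, 146384985 to 146473615, plus strand), with 26 differing bases in capitals.
Wasf1: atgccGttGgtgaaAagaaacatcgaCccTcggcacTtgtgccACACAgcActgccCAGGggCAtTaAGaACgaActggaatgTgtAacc
Wasf3: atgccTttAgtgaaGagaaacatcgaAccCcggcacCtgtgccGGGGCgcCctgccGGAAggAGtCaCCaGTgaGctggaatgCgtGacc
The longest identical run was 23 bases for the ABI pair and 17 bases for each WASF pair. No 31-base window was shared within either class, so an exact match of that length assigns a read to 1 paralog. Wasf2 lies on chromosome 4 at 133130505 to 133199756, plus strand. The single genes of the other classes were Nckap1 (chromosome 2, 80500512 to 80581380, minus strand) and Brk1 (chromosome 6, 113604772 to 113616951, plus strand).

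Values are the authors' DESeq counts per gene, taken here to be scaled by library size factors and called normalized counts below. The approximate depth was 29.5 M reads (M, mega) at the lowest, in KO replicate 1, and 54.4 M at the highest, in WT replicate 2. Markers of postmitotic neurons were high in every library, with a summed level of 7 genes between 259977 and 320107. Genotype was not the sole difference between libraries. A sum of 6 olfactory bulb markers was 3617 to 4969 in KO replicates 1 and 2, Het replicate 1 and WT replicate 3, and 887 to 1308 in the other libraries. Cdhr1, at 2138 to 3436 in the former, made up most of it, and Tbx21, Sp8 and Th were also higher there. Doc2g was nearly level (610 to 745). Lhx9 did not separate these libraries, at 71.0 in Het replicate 1 and 89.6 in WT replicate 3, against 288 in Het replicate 2. A sum of 11 meningeal fibroblast markers was 1756 in Het replicate 3, against 14333 to 33148 elsewhere. In KO against WT all 11 of these markers had a positive log2 fold change (median 0.52, limma). So did 10 of 10 endothelial markers (median 0.31) and 7 of 7 pericyte and smooth muscle markers (median 0.20), beside 48.4% of all genes. Choroid plexus markers split 2 positive to 4 negative, and erythroid markers 3 to 4. In these lists 0 markers had an unadjusted p under 0.05, beside 1.18% of all genes. The Y-linked gene Ddx3y was listed at 0 in KO replicates 1 and 2 and in Het replicate 1, so that sex and genotype were not balanced.

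Cyfip2, the targeted gene, was the 1 member whose level separated the genotypes. KO libraries held 7900.3, 7522 and 8255 normalized counts, Het libraries 8969, 9779 and 9882, and WT libraries 10169, 10344 and 11174. Every KO library lay below every Het library, and every Het library lay below every WT library. Means were 7893 ± 366 in KO, 9543 ± 500 in Het and 10562 ± 537 in WT (SD, n = 3 each), so KO held 74.7% and Het 90.4% of the WT level. The deposited value covers the whole gene and does not show whether a deleted part is missing from this RNA, and in bulk tissue fewer expressing cells and less RNA per cell cannot be told apart.

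**Figure D1:**
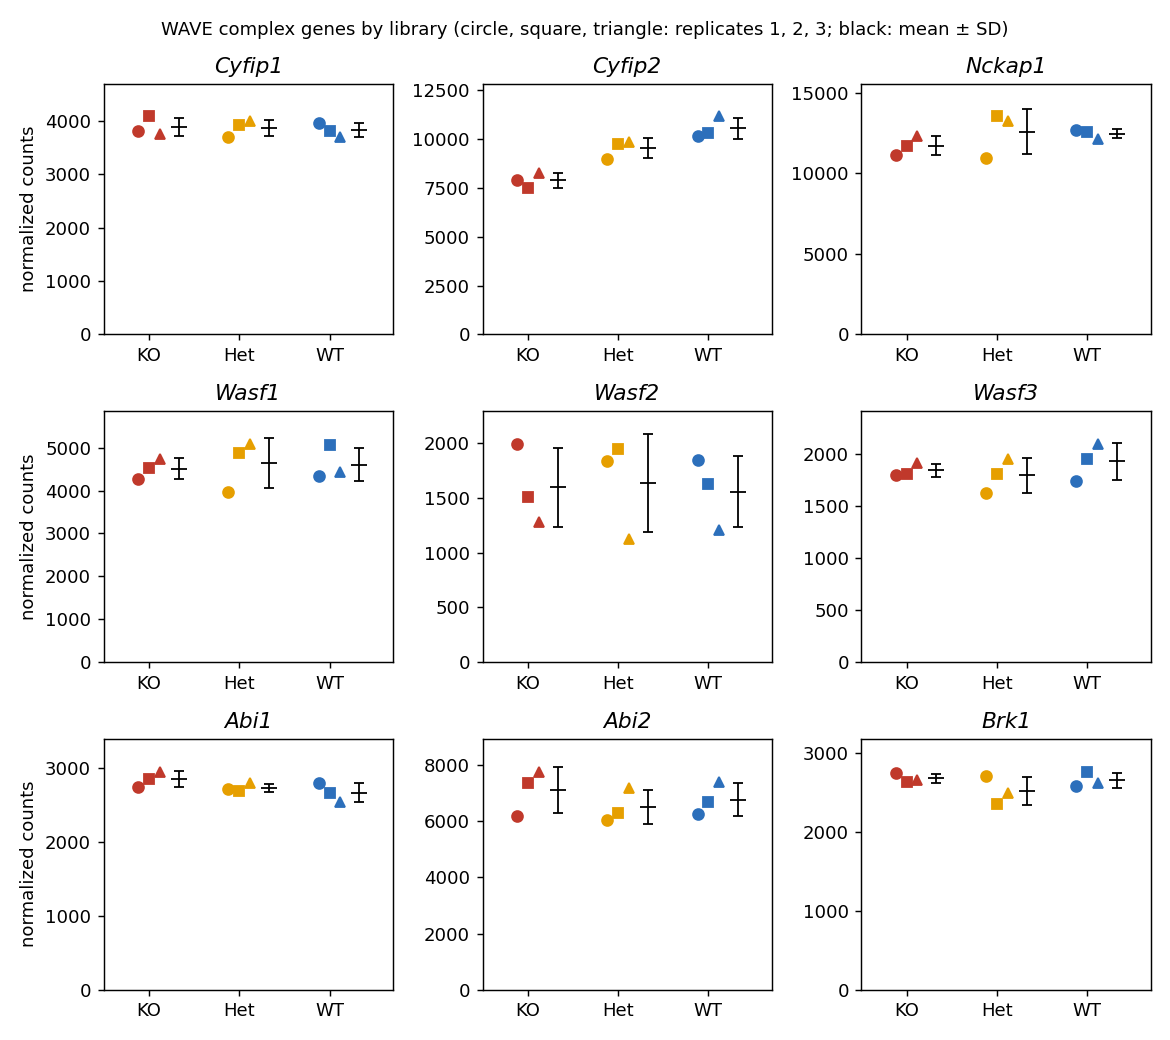
Normalized counts of the 9 WAVE complex genes in each library, by genotype (KO, Het, WT), each on a linear axis that starts at 0; circles, squares and triangles are replicates 1, 2 and 3, and black bars are the mean ± SD of 3 libraries. The Cyfip2 groups do not overlap (7522 to 8255 in KO, 8969 to 9882 in Het, 10169 to 11174 in WT), while the groups of the 8 other genes overlap.

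The log2 fold change of Cyfip2 was -0.42 ± 0.06 in KO against WT (SE; 95% interval -0.56 to -0.28), with an unadjusted p of 9e-05 that ranked at position 2 of 15069 genes and an adjusted p of 0.678 (limma, Benjamini-Hochberg over all genes tested). In Het against WT it was -0.15 ± 0.06 (interval -0.29 to -0.01, adjusted p = 1, limma), and in KO against Het -0.27 ± 0.06 (interval -0.41 to -0.13, adjusted p = 0.942, limma). No comparison passed the adjusted threshold of 0.05 for Cyfip2, nor for any other tested gene. The Het mean lay 0.06 ± 0.05 above the midpoint of KO and WT on the log2 scale (interval -0.06 to 0.18, adjusted p = 0.992, limma), a contrast in which 2.88% of all genes had an unadjusted p under 0.05.

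Sex and tissue moved in part with these groups. KO replicate 3, the single KO library with Ddx3y RNA and without raised olfactory bulb markers, had the highest Cyfip2 level of the KO libraries, 8255, and still lay below each WT library. With sex as a covariate the KO against WT value was -0.34, and without the 4 libraries with raised olfactory bulb markers, which leaves 1 KO and 2 WT libraries, it was -0.31. The Het against WT value was -0.06 without those 4 libraries, against -0.15 with all 9. The libraries with Ddx3y at 0, KO replicates 1 and 2 and Het replicate 1, were all among those 4. Sex and olfactory bulb content therefore cannot be told apart by these 2 settings. The part of sex and tissue in the differences was not tested further.

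Cyfip1, which can take the place of Cyfip2 in the complex, was at nearly one level in all 9 libraries. Its normalized counts were 3824, 4090.5 and 3768 in KO, 3703, 3924 and 3999 in Het, and 3968, 3807 and 3705 in WT. The groups overlapped, the highest and lowest libraries differed 1.10-fold, and KO averaged 3894 ± 172 against 3827 ± 133 in WT (SD, n = 3 each). The KO against WT log2 fold change was 0.02 ± 0.05 (SE), and its 95% interval of -0.10 to 0.15 corresponds to a change between -6.64% and 10.8% of the WT level. The values were 0.02 ± 0.05 in Het against WT and 0.01 ± 0.05 in KO against Het, and all 3 adjusted p were at or above 0.992 (limma). A p that misses the threshold does not show equal levels, and the interval gives the size of change that these libraries leave possible.

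Levels per kilobase put the 2 CYFIP genes on one scale. Divided by the length of all annotated exons joined, 11941 bases for Cyfip1 and 7103 for Cyfip2, Cyfip2 stood at 1111 ± 51.6 normalized counts per kilobase in KO, 1344 ± 70.4 in Het and 1487 ± 75.5 in WT. Cyfip1 stood at 326 ± 14.4 in KO, 325 ± 12.9 in Het and 320.5 ± 11.1 in WT (SD, n = 3 each). Cyfip2 was therefore the more abundant paralog in every library, and the level ratio of Cyfip2 to Cyfip1 averaged 3.42 in KO, 4.14 in Het and 4.65 in WT. The joined exons of Cyfip1 are much longer than its longest coding transcript, 6440 bases, whereas that of Cyfip2 is 6659. With those lengths the ratios were 1.97 in KO, 2.38 in Het and 2.67 in WT.

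Measured against the deficit of Cyfip2, the Cyfip1 difference was small. In KO, Cyfip2 was 376 normalized counts per kilobase below WT and Cyfip1 was 5.61 above it, which is 1.49% of the Cyfip2 deficit. At the top of its 95% interval Cyfip1 would be 34.7 per kilobase higher, or 9.24% of that deficit. The longest coding transcripts gave 2.60% and, at the top of the interval, 16.1%. All of these shares hold the Cyfip2 deficit at the difference of means. Its own interval is left out, so the shares are not upper limits. These values concern RNA and say nothing of protein.

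The summed CYFIP level thus followed Cyfip2. It was 1432, 1402 and 1478 normalized counts per kilobase in KO, 1573, 1705 and 1726 in Het, and 1764, 1775 and 1883 in WT. The 3 genotypes did not overlap, and KO held 79.5% of the WT sum, or 82.1% with the longest coding transcripts. The exact permutation p was 0.10 for each pair of genotypes, two-sided, which is the smallest that 3 against 3 libraries allow. Adjusted over the 45 exact tests run on levels, shares and ratios it was 0.26.

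With Cyfip1 nearly level and Cyfip2 lower, the share of Cyfip1 in the CYFIP RNA was higher in the mutants. It was 22.4%, 24.4% and 21.4% in KO, 19.7%, 19.3% and 19.4% in Het, and 18.8%, 18.0% and 16.5% in WT. Group means were 22.7% in KO, 19.5% in Het and 17.8% in WT, and again no groups overlapped (exact permutation p = 0.10 for each pair). The KO minus WT difference was 4.96 percentage points, and 2.95 without the 4 libraries with raised olfactory bulb markers. With the longest coding transcripts the means were 33.8% in KO, 29.6% in Het and 27.3% in WT. The share rests on Cyfip2 as its larger part, so it repeats the Cyfip2 difference on another scale.

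**Figure D2:**
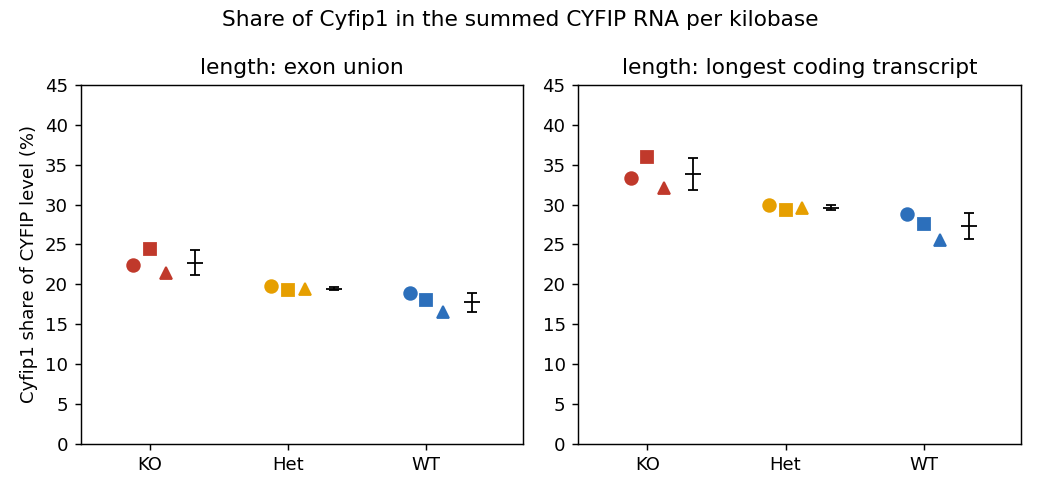
Share of Cyfip1 in the summed CYFIP level per kilobase (percent) in each library of KO, Het and WT, with gene length taken as joined exons (left) or the longest coding transcript (right); circles, squares and triangles are replicates 1, 2 and 3 and black bars the mean ± SD. The means were 22.7% in KO, 19.5% in Het and 17.8% in WT on the left, and 33.8% in KO, 29.6% in Het and 27.3% in WT on the right.

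Nckap1, the scaffold that pairs with the CYFIP subunit, had 11165, 11716 and 12318 normalized counts in KO, 10974, 13549.9 and 13234 in Het, and 12718, 12576 and 12143 in WT. The groups overlapped, with 1 KO library above the lowest WT library and Het replicate 1 below all others. The KO against WT log2 fold change was -0.09 ± 0.08 (SE; interval -0.28 to 0.10), and Het against WT was 0.01 ± 0.08, both with an adjusted p of 1 (limma). With sex as a covariate the KO against WT value was 0.04, so its sign was not settled.

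Its blood-cell relative Nckap1l, which serves the complex in leukocytes and microglia, was low here. Nckap1l had 186, 167 and 126 normalized counts in KO, 175, 147 and 87.0 in Het, and 133, 160.0 and 131 in WT, and per kilobase Nckap1 exceeded it 90.7-fold in KO, 122-fold in Het and 106-fold in WT. The sum of 13 microglia and macrophage markers was also lowest in Het replicate 3, at 1669, and highest in KO replicate 1, at 5864. These were the libraries at both ends for Nckap1l. Sums of endothelial, pericyte and smooth muscle, and meningeal fibroblast markers had the same libraries at both ends, so the match was not particular to microglia. Abi3, an ABI relative of microglia, averaged 39.8 ± 10.4 in KO, 34.0 ± 18.7 in Het and 30.0 ± 5.38 in WT (SD, n = 3 each). The KO against WT values, 0.16 ± 0.27 for Nckap1l and 0.38 ± 0.43 for Abi3, had an adjusted p of 1 (limma). The sign for Nckap1l turned, to -0.21 with sex as a covariate and to -0.21 without the libraries with raised olfactory bulb markers. The part of microglial or other cell content in them was not tested.

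The WASF class carries the actin-activating tail. Wasf1, the form most tied to brain, had 4266, 4530.3 and 4738 normalized counts in KO, 3968, 4866 and 5086 in Het, and 4332, 5052 and 4434 in WT. Wasf3 had 1802, 1811 and 1915 in KO, 1621, 1809.6 and 1952 in Het, and 1739.6, 1949 and 2097 in WT. In both genes the spread inside Het or WT was wider than the distance between any pair of group means. The KO against WT log2 fold changes were -0.03 ± 0.10 for Wasf1 and -0.06 ± 0.09 for Wasf3, with an adjusted p of 1 (limma).

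Wasf2, the broadly expressed form, was the most variable member. It had 1992, 1510.2 and 1281 normalized counts in KO, 1837, 1948 and 1126 in Het, and 1841, 1624 and 1205 in WT, a 1.77-fold range over the libraries. The 3 lowest values came from 1 library of each genotype, KO replicate 3, Het replicate 3 and WT replicate 3. Its SD within genotypes was 0.36 on the log2 scale, against 0.05 for Abi1 and 0.06 for Cyfip1. The KO against WT value was 0.03 ± 0.25 (interval -0.53 to 0.60, adjusted p = 1, limma), so these data leave a wide range of differences possible for this gene.

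Marker lists of neural progenitors and of microglia moved with Wasf2. The summed level of 8 radial glia and progenitor markers was 54591, 49082 and 31344 in KO, 52099, 50470 and 36299 in Het, and 50357, 50574 and 39657 in WT. The same 3 libraries were lowest for the sum and for Wasf2, and they were the 3 lowest for 4 of the 8 markers: Sox2, Vim, Fabp7 and Mki67. None of the 8 was listed at 0 in any library. The sum of 13 microglia and macrophage markers was 5864, 4194 and 3446 in KO, 5190.3, 3504 and 1669 in Het, and 3884, 4147 and 3449 in WT. It too was lowest in those 3 libraries, which were the 3 lowest for 3 of its 13 markers (Csf1r, Cx3cr1 and Fcrls), and KO replicate 1 was highest for both sums and for Wasf2. None of the 13 was listed at 0. Wasf1 was not lowest in those libraries, and Abi2 was at 7199 or above in all 3 of them. Abi2 was also high, at 7359.6, in KO replicate 2, where the progenitor marker sum was 49082. The part of cell composition in the levels of these genes was not tested.

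**Figure D3:**
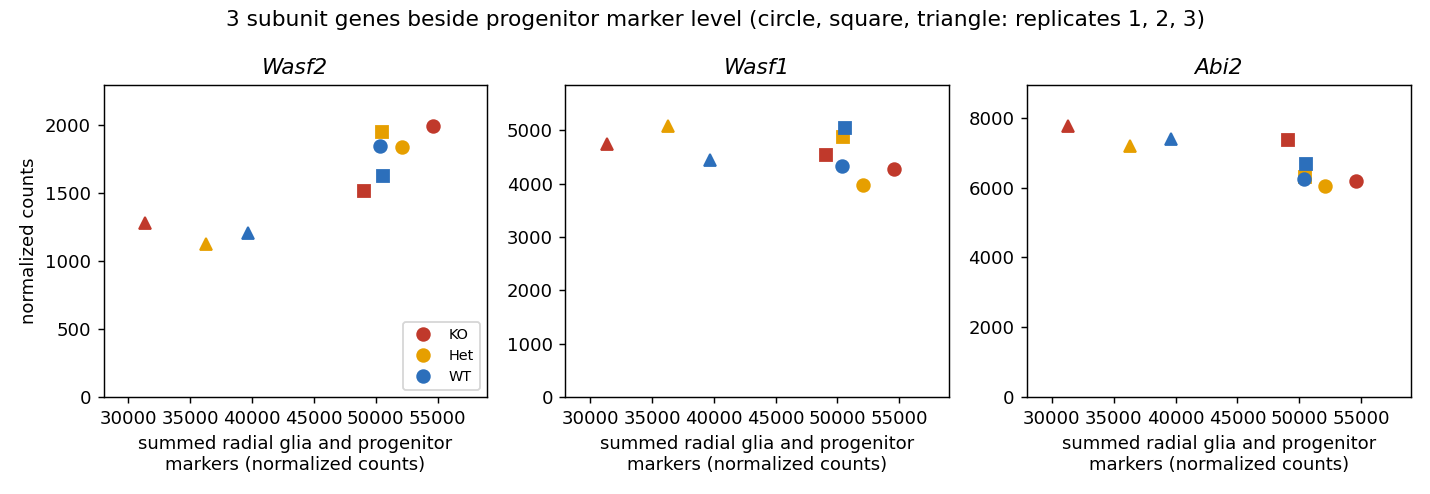
Normalized counts of Wasf2, Wasf1 and Abi2 (vertical axes, from 0) against the summed level of 8 radial glia and progenitor markers (horizontal axis, normalized counts) in 9 libraries; colours are KO, Het and WT, and circles, squares and triangles are replicates 1, 2 and 3. The 3 libraries with the lowest marker sums, 31344 to 39657, 1 of each genotype, have the 3 lowest Wasf2 values, 1126 to 1281, and Abi2 values of 7199 to 7775. KO replicate 2, with a marker sum of 49082, has an Abi2 value of 7359.6.

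Per kilobase, Wasf1 made up most WASF RNA. Over the 9 libraries its share of the WASF level was 72.3% ± 2.26, that of Wasf3 16.1% ± 1.11 and that of Wasf2 11.6% ± 2.63 (SD, n = 9 libraries), and the longest coding transcripts gave 72.4%, 15.4% and 12.2%. Wasf3 exceeded Wasf2 in each library with joined exons, by 1.06-fold or more, but with the longest coding transcripts the lowest ratio was 0.958, so the order of these 2 depends on the length used. The Wasf1 share was 72.2% in KO, 72.7% in Het and 72.2% in WT. Exact permutation p for the Wasf1 and Wasf2 shares were between 0.70 and 1.00 for every pair of genotypes. No shift between WASF paralogs beyond the spread of libraries was seen.

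ABI proteins link the complex to kinases and membrane receptors through their SH3 domains. Abi1 had 2734, 2844 and 2947 normalized counts in KO, 2705, 2679 and 2788 in Het, and 2792, 2660.4 and 2529.8 in WT. KO averaged 2842 ± 107 against 2661 ± 131 in WT (SD, n = 3 each), and WT replicate 1 lay above KO replicate 1. The KO against WT log2 fold change, 0.10 ± 0.05 (SE; interval -0.03 to 0.22), had an unadjusted p of 0.115 and an adjusted p of 1 (limma). It was the member nearest to a difference after Cyfip2, at rank 701 of 15069.

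Abi2 had 6191, 7359.6 and 7775 normalized counts in KO, 6042, 6314 and 7199 in Het, and 6253, 6682 and 7392 in WT. Replicate 1 was the lowest library in every genotype and replicate 3 the highest. The log2 fold change was 0.07 ± 0.10 in KO against WT and -0.06 ± 0.10 in Het against WT, both with an adjusted p of 1 (limma). Per kilobase Abi2 held 53.8% ± 2.26 of the ABI level and Abi1 46.2% ± 2.26 (SD, n = 9 libraries), a near even split, and Abi2 exceeded Abi1 in each library by at least 1.05-fold. The longest coding transcripts moved the shares to 59.3% for Abi2 and 40.7% for Abi1. The Abi2 share was 54.0% in KO, 53.0% in Het and 54.5% in WT (exact permutation p between 0.50 and 1.00).

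Brk1, the small subunit that holds WASF and ABI together, had 2751, 2638 and 2667 normalized counts in KO, 2716, 2353 and 2496 in Het, and 2580.4, 2769.7 and 2626 in WT. The KO values lay inside the WT range, and 2 of the 3 Het values lay below it. The log2 fold change was 0.02 ± 0.06 in KO against WT and -0.08 ± 0.06 in Het against WT, both with an adjusted p of 1 (limma).

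Counted over the complex, 0 of 9 members passed at an adjusted p under 0.05 in any of the 3 comparisons (limma), against a background of 0% of all genes in each. At an unadjusted p under 0.05, 1 of 9, Cyfip2, was past the threshold in each, against 1.18% of all genes in KO against WT, 1.61% in Het against WT and 3.59% in KO against Het. Cyfip2 was also the 1 of 9 members without overlap between groups, which held for 6.46% of all genes in KO against WT, 6.67% in Het against WT and 7.82% in KO against Het. In each comparison 5 members had a positive log2 fold change and 4 a negative one. Of all genes, 48.4% were positive in KO against WT, 46.2% in Het against WT and 50.4% in KO against Het. The median over the members was 0.02 in KO against WT, 0.01 in Het against WT and 0.01 in KO against Het, beside medians over all tested genes of -0.004 in KO against WT, -0.01 in Het against WT and 0.002 in KO against Het. Without Cyfip2 the members ran from -0.09 to 0.10 in KO against WT, from -0.10 to 0.05 in Het against WT, and from -0.10 to 0.12 in KO against Het. In KO against WT the signs of Cyfip1, Nckap1, Wasf1, Wasf2, Wasf3 and Brk1 turned with sex as a covariate, without the libraries with raised olfactory bulb markers, or under both, with the widest move in Wasf2, to -0.43 without those libraries. The 3 comparisons share libraries in pairs, so they are not independent of each other.

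**Figure D4:**
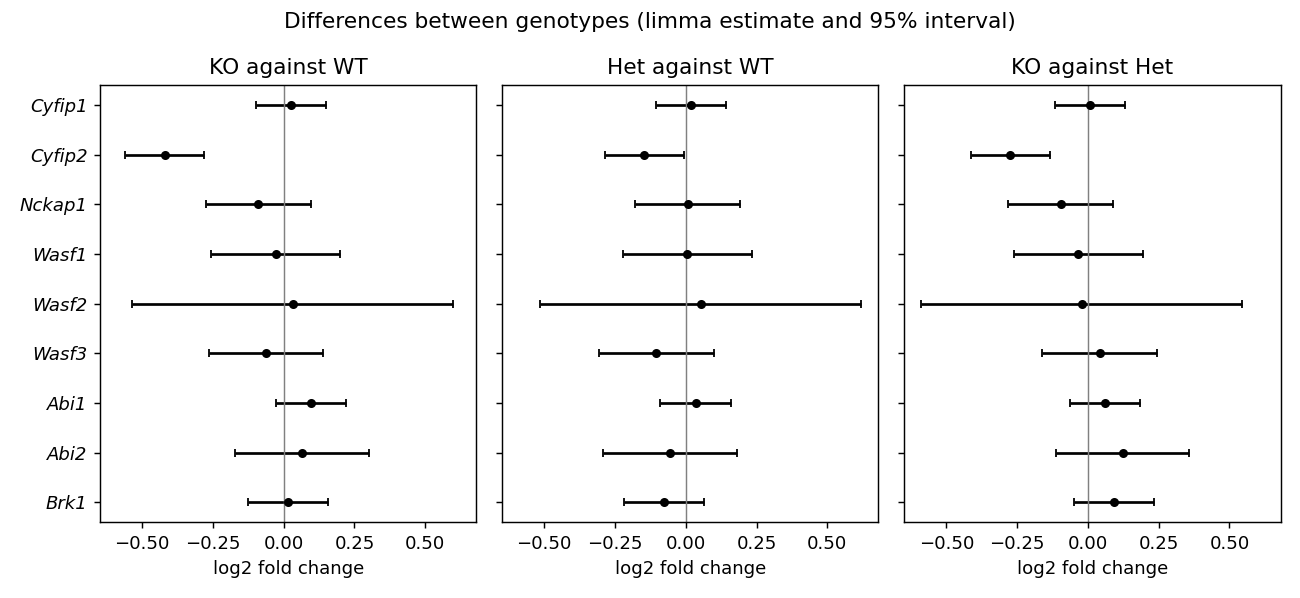
Log2 fold change of the 9 WAVE complex genes in KO against WT, Het against WT and KO against Het; points are limma estimates and bars their 95% intervals, and the grey line marks no difference. The interval of Cyfip2 lies below 0 in all 3 panels (-0.56 to -0.28, -0.29 to -0.01 and -0.41 to -0.13), and the intervals of the other 8 genes cross it.

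The order of levels across the complex was read per kilobase of joined exons, in WT libraries. Nckap1 stood highest at 2514 ± 60.3 normalized counts per kilobase, followed by Brk1 at 2428 ± 90.3, Wasf1 at 1614 ± 136 and Cyfip2 at 1487 ± 75.5 (SD, n = 3 each). Abi2 at 793 ± 67.4 and Abi1 at 659.9 ± 32.5 came next, and then Wasf3 at 371 ± 34.6, Cyfip1 at 320.5 ± 11.1 and Wasf2 at 249 ± 51.7. Nckap1 and Brk1 differed by less than the sum of their SDs, as did Wasf1 and Cyfip2. With the longest coding transcripts Cyfip1 stood at 594 ± 20.6, above Wasf3. Wasf2, Wasf3 and Cyfip1 were the 3 least abundant members by RNA with either length.

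Summed by class in WT, the 5 classes stood at 2514 ± 60.3 for NCKAP, 2428 ± 90.3 for BRK1, 2234 ± 148 for WASF, 1808 ± 65.9 for CYFIP and 1453 ± 35.5 for ABI (normalized counts per kilobase; SD, n = 3). ABI was the least abundant class in all 3 WT libraries and all 3 Het libraries. In KO libraries the CYFIP sum lay near the ABI sum. The ratio of CYFIP to ABI was 1.02, 0.895 and 0.900 in KO, 1.14, 1.22 and 1.13 in Het, and 1.24, 1.23 and 1.26 in WT. CYFIP was below ABI in KO replicates 2 and 3 and above it in KO replicate 1. The 3 genotypes did not overlap (exact permutation p = 0.10 for each pair, the smallest possible, and 0.26 adjusted over the 45 exact tests). The ratio was chosen after seeing the data, so its separation is a description only.

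With the longest coding transcripts the mean ratio was 0.869 in KO, 1.06 in Het and 1.11 in WT, and CYFIP was below ABI in each KO library. The ratio of CYFIP to each other class was also lower in KO than in WT, without overlap (exact permutation p = 0.10 each, 0.26 adjusted). All of these ratios, that to ABI included, divide the CYFIP sum, which followed Cyfip2, so they are not separate from the Cyfip2 difference. To NCKAP it was 0.609 in KO and 0.720 in WT, to WASF 0.656 in KO and 0.812 in WT, and to BRK1 0.586 in KO and 0.745 in WT. For those 3 classes the Het and WT libraries overlapped (exact permutation p between 0.30 and 0.90). RNA per length is not a count of proteins, so these ratios do not give the stoichiometry of the complex.

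**Figure D5:**
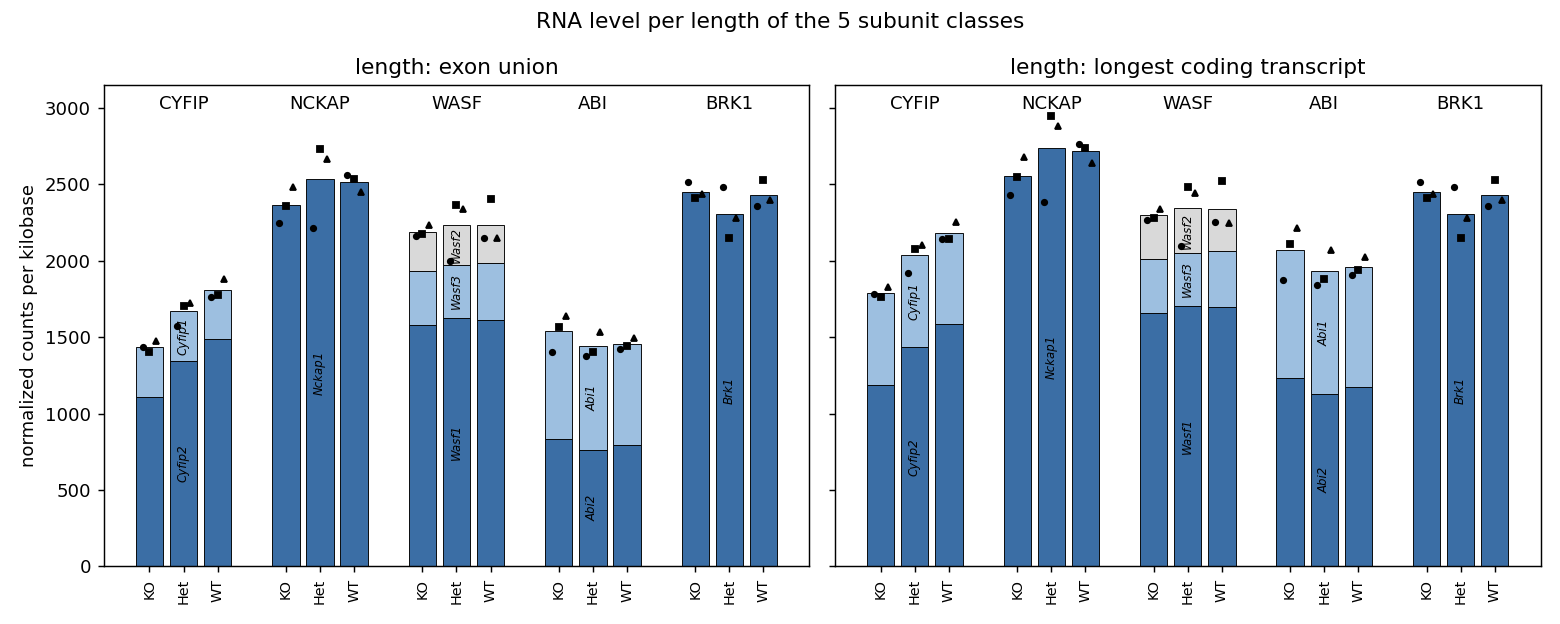
Summed level of each subunit class (normalized counts per kilobase, from 0) in KO, Het and WT, with gene length taken as joined exons (left) or the longest coding transcript (right); stacked segments are the mean of each gene, named on the Het bar, and black circles, squares and triangles are the class sums in replicates 1, 2 and 3. By joined exons the CYFIP sum is 1437 in KO, 1668 in Het and 1808 in WT, while the ABI sum is 1537 in KO, 1439 in Het and 1453 in WT.

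Genes that act on the complex were taken from lists chosen by function. Of all tested genes, 48.4% had a positive log2 fold change in KO against WT, with a median of -0.004. The sign counts of the lists below were not tested against that share. Of 8 Rac GTPases and other direct activators, 2 had a positive and 6 a negative log2 fold change in KO against WT (median -0.05). Rac1, the GTPase that engages the CYFIP subunit, had 10814 ± 292 normalized counts in KO and 11099 ± 71.5 in WT (SD, n = 3 each), a log2 fold change of -0.04 ± 0.05. Rac3, its neuronal relative, stood at -0.10 ± 0.19 and Rhog, which activates Rac through the ELMO and DOCK proteins, at -0.10 ± 0.23. None of the 8 passed in any comparison (adjusted p under 0.05, limma), as none of all tested genes did. In KO against WT 0 of 8 had an unadjusted p under 0.05 (limma), beside 1.18% of all genes. At that share a count of 0 says little about a list of this size.

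Of 20 exchange factors that load Rac, 14 were positive and 6 negative in KO against WT (median 0.04), and of 13 proteins that switch Rac off, 6 were positive and 7 negative (median -0.01). Among 23 binding partners and regulators 22 could be tested, with 17 positive and 5 negative (median 0.05). They include Baiap2, known as IRSp53, which ties the WASF proteins to membranes, at -0.05 ± 0.14, and Nhsl1, a Nance-Horan family binder of the complex, at 0.05 ± 0.16. Of 13 other nucleation promoters 7 were positive and 6 negative (median 0.01), with Wasl, which encodes N-WASP, at 0.05 ± 0.05. The 5 FMRP-side partners split 3 to 2, with Fmr1 at 3239.8 ± 26.5 in KO and 3245 ± 367 in WT and a log2 fold change of 0.00 ± 0.08. With sex as a covariate or without the olfactory bulb libraries the signs of Rac3, Baiap2, Nhsl1, Wasl and Fmr1 turned under at least 1 of the 2. In these lists too, 0 genes passed in any comparison (limma), and 0 had an unadjusted p under 0.05 in KO against WT. The share of all genes at that unadjusted threshold was 1.18%, so these counts say little about the lists.

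In KO against Het, 5 genes of the lists had an unadjusted p under 0.05 (limma), named here after their values were seen. In that comparison 3.59% of all genes did. By list they were 1 of 8 activators, 3 of 20 exchange factors and 1 of 22 tested binding partners, with 0 in the other lists. The 5 genes were the GTPase gene Arf6 at 0.16, the exchange factors Tiam1 at 0.22, Tiam2 at -0.35 and Arhgef7 at -0.11, and the protocadherin Pcdh19 at 0.39 (log2 fold change, adjusted p = 0.942 each, limma). Tiam2 had 9917, 8882 and 12207 normalized counts in KO, 12916, 13526 and 12649 in Het, and 12289, 12358 and 10521 in WT. Its KO and Het libraries did not overlap, which held for 7.82% of all genes. Tiam2 was picked by its p in this same comparison, so this is not separate support.

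The genes whose log2 values followed Cyfip2 most closely over the 9 libraries were Pcdhb3 (Pearson r = 0.96), Kif9 (0.94), Eif5a (0.93), Enkd1 (0.91) and Gpr62 (0.90). These r describe 9 libraries that share genotype, depth and tissue content, and the 5 genes are the highest of all tested genes with a proper symbol. Eif5a, a translation factor on the same chromosome as Cyfip2, stood at 11934 ± 373 normalized counts in KO, 12548 ± 175 in Het and 13098 ± 586 in WT (SD, n = 3 each). Among the other members, r with Cyfip2 ran from -0.68 for Abi1 to 0.54 for Nckap1. Between these it was 0.43 for Wasf3, 0.27 for Wasf1, -0.08 for Abi2, -0.22 for Wasf2, -0.26 for Cyfip1 and -0.29 for Brk1.

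Cyfip1 was followed most closely by Usp11 (r = 0.95), Nabp1 (0.94), Tut4 (0.94), Zmynd8 (0.92) and Ibtk (0.91), again a choice from all tested genes. No member of the complex was among either set of 5.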

How the data were processed

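RNA from embryonic cortex was sequenced in 9 libraries after preparation with a TruSeq Stranded mRNA kit, per the labels' protocols. The deposited signal is 1 value per gene and library, named a DESeq count by the authors. It is taken here as the gene's reads scaled by a library size factor, which the column names do not state. Tools listed in the submitters' processing notes, without role or order, are DESeq2 1.19.11, Salmon 0.11.2 and R 3.6.0, with the build GRCm38. Total signal per library was 36.0 to 38.6 M. In a library, 61.0% to 78.5% of the values under 6 came within 0.1 of a whole multiple of 1 read, so whole reads were not recovered, depth is approximate, and the fallback planned for scaled values replaced a count test.

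Genes with a mean of at least 10 were fitted as log2(value + 1) with limma 3.58.1 in R 4.3.3 (eBayes with a trend), with 1 mean per genotype over all 9 libraries. Tests were two-sided, with Benjamini-Hochberg adjustment over all 15069 genes. Fold changes on this scale understate those of low genes. The procedure was tested on simulated data. Shares, sums and ratios were compared by exact permutation over libraries.

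Symbols, lengths and sequences came from GENCODE M21, in which 18783 of 18820 gene IDs had a symbol. The members and lists were chosen with earlier results of these data known. Named genes are the members, their relatives Nckap1l and Abi3, 7 pathway genes taken whatever their values (Rac1, Rac3, Rhog, Wasl, Baiap2, Nhsl1 and Fmr1), and the 5 genes most like Cyfip2 and Cyfip1. Arf6, Tiam1, Tiam2, Arhgef7 and Pcdh19 were added for their unadjusted p in KO against Het, after their values were seen. The ratio of CYFIP to ABI was chosen after seeing the data.

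Same-numbered KO and Het libraries deviated together for replicates 1 and 3 (correlations 0.45 and 0.47). For replicate 2 the value, 0.10, was below those of KO replicate 1 with Het replicate 2 (0.15) and KO replicate 2 with Het replicate 1 (0.12). Same-numbered values were -0.01, 0.06 and -0.03 in KO and WT, and -0.07, 0.25 and 0.04 in Het and WT. KO and Het replicates 1, and likewise replicates 3, were also alike in Ddx3y and in olfactory bulb markers. That likeness cannot be told apart from a pairing, and no label states a pairing. Alternatives were the replicate number as a block, other pseudocounts, filters and scalings, the compared genotypes alone, no trend, sex as a covariate, leaving out the olfactory bulb libraries, leaving out each library, and another gene length.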

Additional observations from a re-analysis of the deposited data

How the results depend on the processing

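The 3 Cyfip2 log2 fold changes and the Cyfip2 Het against midpoint contrast kept their sign in 70 of 70 alternative values. None of these values passed the threshold, as none had in the main fits. With the replicate number as a block, Cyfip2 had an adjusted p of 0.382 in KO against WT, 0.991 in Het against WT and 0.673 in KO against Het (limma), and the block changed no call. The ratio of CYFIP to ABI, a measure chosen after seeing the data, kept its sign in every alternative, as did the summed CYFIP level and the Cyfip1 share. Without the olfactory bulb libraries the KO minus WT difference in the Cyfip1 share was 2.95 percentage points, against 4.96 with all. The number of genes called was 0 to 1 in each comparison on leaving out 1 library (1 without KO replicate 3 in KO against WT, without Het replicate 1 or WT replicate 1 in Het against WT, and without Het replicate 1 in KO against Het). It was also 1 in Het against WT and in KO against Het when the compared genotypes were fitted alone. Lengths of the longest coding transcripts moved the Abi1 share to 40.7% and the Abi2 share to 59.3%.

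Alternatives were run for the members in each comparison, and in KO against WT also for Nckap1l, Abi3, Rac1, Rac3, Rhog, Wasl, Baiap2, Nhsl1 and Fmr1. None of these genes passed the threshold in those fits. Cyfip2 aside, the sign changed in 33 of 362 values from other settings and in 44 of 198 on leaving out 1 library. Some of the changed values were far from 0, such as -0.43 for Wasf2 below. The cause was not tested. In KO against WT, sex as a covariate gave 0.042 for Nckap1, 0.12 for Wasf1, -0.22 for Wasf2, 0.037 for Wasf3, -0.044 for Brk1, -0.21 for Nckap1l, 0.14 for Rac3, -0.0030 for Wasl, 0.10 for Baiap2, -0.091 for Nhsl1 and -0.0043 for Fmr1. Leaving out the olfactory bulb libraries gave -0.045 for Cyfip1, 0.018 for Wasf1, -0.43 for Wasf2, 0.057 for Wasf3, -0.0033 for Brk1, -0.21 for Nckap1l, 0.33 for Rac3, 0.34 for Baiap2, -0.37 for Nhsl1 and -0.072 for Fmr1. In Het against WT, quantile normalization gave -0.032 for Nckap1 and -0.018 for Wasf1, upper-quartile rescaling -0.0052 for Nckap1 and -0.0057 for Wasf1, the sex covariate -0.071 for Wasf2 and 0.0038 for Abi2, and leaving out the olfactory bulb libraries -0.22 for Wasf2, 0.029 for Wasf3 and 0.061 for Abi2. In KO against Het, upper-quartile rescaling gave 0.00050 for Wasf2, the sex covariate 0.039 for Wasf1, and leaving out the olfactory bulb libraries -0.072 for Cyfip1.

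On leaving out each library in turn, the KO against WT values ran from -0.011 to 0.051 for Cyfip1, -0.070 to 0.041 for Wasf1, -0.14 to 0.18 for Wasf2, -0.13 to 0.00030 for Wasf3, -0.0021 to 0.16 for Abi2, -0.0061 to 0.045 for Brk1, -0.26 to 0.043 for Rac3, -0.21 to 0.068 for Rhog, -0.20 to 0.050 for Baiap2, -0.10 to 0.18 for Nhsl1 and -0.065 to 0.092 for Fmr1. In Het against WT they ran from -0.0053 to 0.050 for Cyfip1, -0.050 to 0.10 for Nckap1, -0.065 to 0.11 for Wasf1, -0.12 to 0.30 for Wasf2, -0.0010 to 0.070 for Abi1 and -0.13 to 0.0080 for Abi2. In KO against Het they ran from -0.029 to 0.030 for Cyfip1, -0.14 to 0.037 for Wasf1, -0.27 to 0.12 for Wasf2 and -0.029 to 0.10 for Wasf3. Low counts limit Abi3, at 15.9 to 53.2 normalized counts, and a minimum mean of 50 leaves it untested.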
